A study of Mus musculus with 16 samples.

Results

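Dexamethasone, a synthetic glucocorticoid, was compared with its saline vehicle in the uterus of adult mice that had received no genistein as newborns. The comparison set the 4 arrays of control dexamethasone mice against the 4 of control vehicle mice, which is 8 of the 16 arrays of the series, across all 24651 genes and unnamed targets that were measured. Control pups had received 20 µl of oil on postnatal days 1 to 5, which the design text calls corn oil and the labels call saline. The adrenals and ovaries of every mouse were removed at 6 weeks of age, so all groups lacked the main sources of corticosterone and ovarian steroids. At 8 weeks the treated mice received 1 mg/kg dexamethasone into the peritoneum and the vehicle mice 100 µl of saline, and the whole uterus was taken 4 h later. The other 8 arrays came from mice given 50 mg/kg genistein, a soy isoflavone, in place of the oil, and then dexamethasone or vehicle on the same schedule. The labels used here name neither strain nor individual animals, so the p-values measure the spread between arrays, which may be technical, and 4 arrays a group limit the precision.

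Glucocorticoids bind the glucocorticoid receptor, a transcription factor that enters the nucleus, binds palindromic DNA elements and raises nearby genes, and that also restrains inflammatory factors such as NF-kappaB and AP-1. Its best known targets include clock genes, kinase and phosphatase genes and feedback inhibitors, and chemokines and cytokines are its best known repressed genes. In the uterus glucocorticoids are known to oppose estrogen in growth and in the recruitment of immune cells. The genes described here were sought outside a list of 72 classical targets and a list of 54 inflammatory genes. Other known glucocorticoid targets can lie outside these lists. Genes that moved with adipocyte markers or that lay near the background of the array are given apart.

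All 18 measured markers of uterine epithelium, stroma and smooth muscle were above background on each of the 8 arrays. Correlations across genes ran from 0.974 to 0.981 between dexamethasone arrays, from 0.970 to 0.985 between vehicle arrays and from 0.946 to 0.976 between the groups. A level below is the log2 signal of a probe minus the 75th percentile of its array, and levels of different genes cannot be set against each other. Dexamethasone changed 5669 of 24651 genes by limma at an adjusted p below 0.05. Of these, 2082 rose (8.45% of those tested) and 3587 fell (14.6%), and the median log2 change over all genes was -0.16. The count was 3107 without vehicle array 1 and 3565 without dexamethasone array 4. Setting apart 67 classical targets, of which 41 rose and 2 fell, 46 inflammatory genes, of which 1 rose and 23 fell, and 33 adipocyte genes left 1654 rises and 2503 falls among genes with a symbol.

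Among brighter genes outside those lists, the steepest rises that met the conditions below were Fyb2, Il13ra2, Omd and Dpep1, and the steepest falls were C1ql2, Prnd and Timp1. The 30 genes named first lie in the upper 3 of 5 signal classes, where 1783 genes rose (12.1% of 14790) and 1943 fell (13.1%). They were also required to show no overlap between the groups, to keep their call with an adipocyte score as covariate and to keep it without dexamethasone arrays 2 and 3. Over all genes the groups did not overlap for 2684 that were higher (10.9%) and 4304 that were lower (17.5%). The conditions together held for 485 rises and 616 falls, and the 15 steepest of each are described. All 30 stayed called with slide as a block. Because they were chosen for their change, their size says nothing about how large a change is typical.

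The steepest of these rises was in an adaptor of T-cell receptor signalling, Fyb2. Its level was 2.07, 1.33, 1.13 and 1.10 on the dexamethasone arrays, against -4.41, -4.65, -3.86 and -4.39 on the vehicle arrays, a log2 change of 5.73 (SE 0.28, 53.2-fold, adjusted p = 9.37e-08). Every dexamethasone array lay far above every vehicle array. Il13ra2, a decoy receptor that binds interleukin 13 without signalling onward, stood at 0.89, -0.05, -0.41 and 0.00 under dexamethasone, against -6.73, -5.15, -5.21 and -4.63 under vehicle (log2 change 5.54, SE 0.49). The vehicle arrays varied more for this gene than the treated ones, and the groups were still well apart.

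A matrix protein and a surface enzyme were also among the rises. Omd encodes osteomodulin, a small leucine-rich proteoglycan that binds collagen. Its levels were -0.69, 0.30, 0.39 and -0.73 in dexamethasone uteri, against -4.84, -4.52, -4.50 and -4.00 in vehicle uteri (log2 change 4.28, SE 0.31). Dpep1 encodes a membrane dipeptidase that also cleaves leukotrienes. It measured 0.32, -0.03, -0.20 and -0.39 with dexamethasone, against -3.96, -4.50, -3.96 and -4.43 with vehicle (log2 change 4.13, SE 0.21, adjusted p = 9.37e-08). For both genes the spread within a group was small beside the gap between groups.

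The named rises also held 2 cytochrome P450 genes and a glutathione transferase gene. Cyp2f2, a cytochrome P450 best known from mouse airway, had levels of 3.66, 4.19, 3.69 and 4.54 under dexamethasone, against -0.14, 1.54, 2.00 and 0.81 under vehicle (log2 change 2.97, SE 0.55, adjusted p = 0.0027). Its vehicle arrays were the most scattered among the 3 enzymes given here, and its adjusted p with the adipocyte covariate was 0.0469. Cyp1b1, a P450 that hydroxylates estradiol, stood at -0.48, 0.25, 0.74 and 0.51, against -2.10, -2.40, -2.34 and -2.33 in vehicle uteri (log2 change 2.55, SE 0.32). The glutathione transferase gene Gsta3 stood at 0.25, 1.64, 1.76 and 1.34, against -1.26, -1.53, -1.28 and -1.45 in vehicle uteri (log2 change 2.63, SE 0.27). In both of these genes dexamethasone array 1, which had the lowest adipocyte score of its group, was the lowest treated array, and the log2 change at equal score was 1.69 for Cyp1b1 and 1.90 for Gsta3. Abhd15, a protein that restrains lipolysis in adipocytes, was highest on dexamethasone arrays 2 and 3, with -1.77, -1.02, -1.04 and -1.85 on dexamethasone arrays, against -3.28, -3.88, -3.65 and -3.79 on vehicle arrays. Its log2 change was 2.23 (SE 0.21), and 1.77 at equal score.

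A transporter and a potassium channel were also among the named rises. Slc10a6, which carries sulfated steroids such as estrone sulfate into cells, measured 1.24, 1.70, 1.04 and 0.69 with dexamethasone, against -1.19, -1.45, -1.30 and -1.58 with vehicle (log2 change 2.55, SE 0.28, adjusted p = 9.66e-05). Kcna5, a voltage-gated potassium channel of vascular smooth muscle and heart, measured -0.38, -0.06, -0.62 and -1.01 with dexamethasone, against -3.11, -2.26, -3.60 and -2.55 with vehicle (log2 change 2.36, SE 0.33). Tcf23, a basic helix-loop-helix factor needed for decidualisation in mice, stood at 2.82, 2.83, 2.14 and 2.29 under dexamethasone, against -0.15, -0.39, 0.50 and 0.19 under vehicle (log2 change 2.48, SE 0.29). Signalling genes in the same set were Ripor2, an inhibitor of a small GTPase, with a log2 change of 2.65 (SE 0.27), and Pik3c2g, a class II phosphoinositide kinase, at 2.24 (SE 0.33). A second, weaker probe of Pik3c2g gave -0.80, so that gene is uncertain, and the normexp background correction ended its call. Dpf1, a chromatin subunit known from neurons, changed by 2.78 (SE 0.28) and Tmem252 by 2.67 (SE 0.19).

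**Figure D1:**
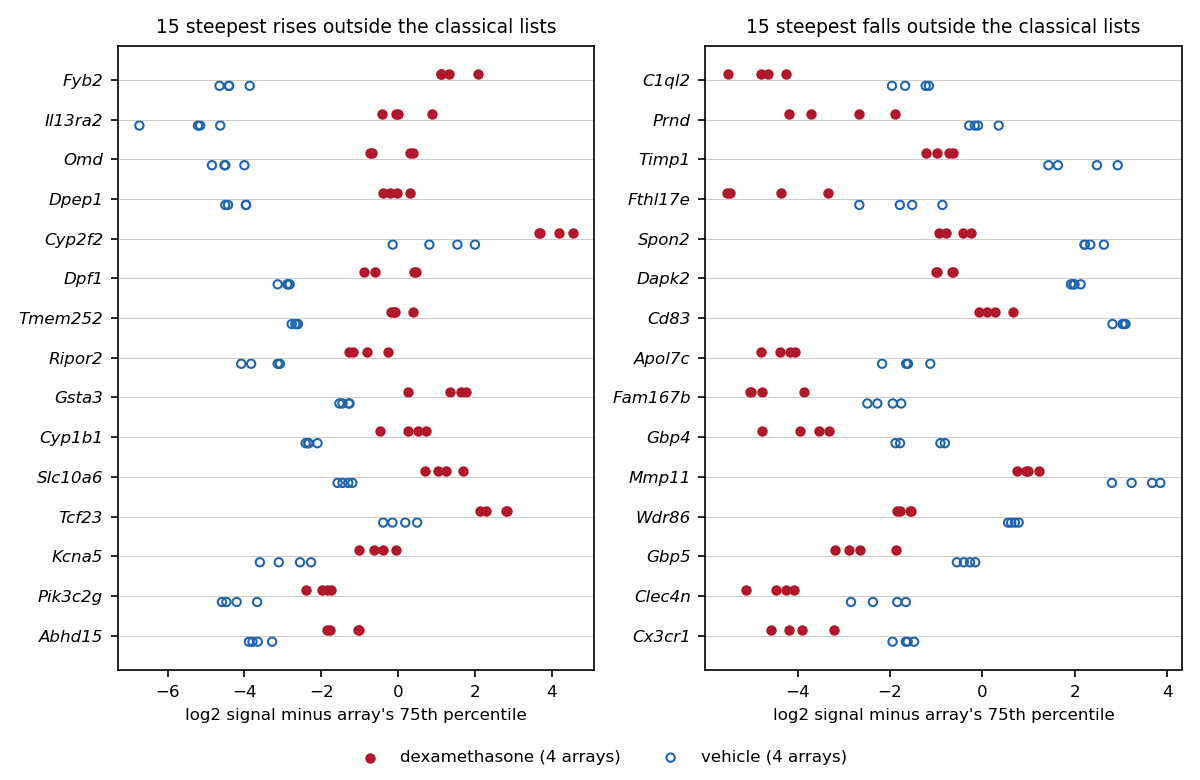
Levels of the 30 named genes on the 4 dexamethasone arrays (filled) and the 4 vehicle arrays (open), as log2 signal minus the 75th percentile of the array; rises are on the left panel and falls on the right. In every row the filled and open points stay apart, with log2 changes from 2.23 to 5.73 on the left and from -3.29 to -2.29 on the right.

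Promoters were searched for the palindrome that the glucocorticoid receptor binds. The motif was GNACA and TGTNC separated by any 3 bases, which reads the same on both strands, in the window from 250 bases before to 50 bases after each start site in RefSeq on GRCm38.p6. It was present in 156 of 32851 promoters of the table (0.475%) and in 0.395% of promoters of tested genes. It occurred in 14 of 1728 promoters of genes called higher (0.81%) and in 5 of 2524 promoters of genes called lower (0.198%). These called sets include the classical targets, the inflammatory genes and the named genes themselves. Of 18 promoters of the 15 named rises 3 held it, and none of 12 promoters of 11 named falls did. The matching promoters are printed to their start site on the strand of the gene, with the match in capitals. Fyb2 lies on the plus strand at chr4:104913311-104913560, with the match at bases -247 to -235. Slc10a6 lies on the minus strand at chr5:103629404-103629653, with the match at -163 to -151. Kcna5 lies on the minus strand at chr6:126535556-126535805, with the match at -59 to -47.
Fyb2: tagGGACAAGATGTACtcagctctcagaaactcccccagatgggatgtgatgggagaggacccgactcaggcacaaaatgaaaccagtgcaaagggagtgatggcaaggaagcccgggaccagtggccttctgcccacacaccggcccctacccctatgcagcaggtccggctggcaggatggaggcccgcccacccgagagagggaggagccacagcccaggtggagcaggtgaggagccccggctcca
Slc10a6: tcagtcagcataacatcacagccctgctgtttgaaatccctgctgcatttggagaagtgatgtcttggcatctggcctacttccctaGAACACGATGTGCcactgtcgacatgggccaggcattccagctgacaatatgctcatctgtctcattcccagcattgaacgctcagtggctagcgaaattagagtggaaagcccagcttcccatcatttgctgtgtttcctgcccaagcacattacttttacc
Kcna5: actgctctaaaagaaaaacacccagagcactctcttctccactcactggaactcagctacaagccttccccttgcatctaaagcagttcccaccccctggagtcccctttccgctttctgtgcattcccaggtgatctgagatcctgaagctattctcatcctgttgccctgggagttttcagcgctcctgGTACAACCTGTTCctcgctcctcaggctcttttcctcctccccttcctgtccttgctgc

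These letters describe the 3 promoters whose genes changed by 5.73, 2.55 and 2.36 on the log2 scale. A match is not a measured binding site, and nothing on these arrays shows whether the receptor bound there. The NF-kappaB motif, GGGNN directly followed by TTTCC and searched on both strands in the same windows, was present in 1.63% of all promoters. Among the named genes it occurred at base -112 of a Prnd promoter and at base -77 of the Gbp5 promoter, both genes that fell, and in none of the 18 promoters of the named rises. Over all called genes it was present in 1.98% of the promoters of those that fell and in 1.5% of those that rose.

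The named falls included Cd83, Cx3cr1 and Clec4n, known from dendritic and myeloid cells. Cd83, a surface marker of mature dendritic cells, stood at 0.11, 0.27, -0.07 and 0.67 under dexamethasone, against 3.07, 2.81, 3.09 and 3.03 under vehicle (log2 change -2.76, SE 0.23, adjusted p = 9.7e-06). The fractalkine receptor Cx3cr1, found on monocytes and macrophages, measured -3.90, -4.57, -4.18 and -3.21 with dexamethasone, against -1.66, -1.62, -1.48 and -1.94 with vehicle (log2 change -2.29, SE 0.27). Clec4n, a myeloid receptor for fungal sugars, measured -5.12, -4.47, -4.08 and -4.24, against -1.84, -2.84, -1.66 and -2.37 in vehicle uteri (log2 change -2.30, SE 0.27). In whole tissue a loss of cells and less RNA per cell cannot be told apart. Of 24 macrophage and dendritic markers 5 fell, Cx3cr1 itself among them, and 1 rose. The share that fell was 20.8%, against 14.6% over all genes. List medians ran from -0.641 to -0.0371 on dexamethasone arrays and from -0.0778 to 0.215 on vehicle arrays. Within slides 1, 3 and 4 that list's median change was -0.737, -0.479 and 0.074. Slide 3 sets dexamethasone array 1 against vehicle array 2, and slide 4 dexamethasone array 3 against vehicle array 4. With an adipocyte score as covariate 6 markers fell, with a median of -0.797. The part of this list in the falls was not tested.

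The interferon-induced GTPases of the guanylate-binding family, which act against intracellular microbes, fell in 2 of the named genes. Gbp4 measured -3.31, -3.54, -4.76 and -3.94 with dexamethasone, against -0.91, -1.78, -1.88 and -0.81 with vehicle (log2 change -2.54, SE 0.34). Gbp5 measured -2.88, -1.88, -3.20 and -2.65, against -0.16, -0.27, -0.40 and -0.55 in vehicle uteri (log2 change -2.30, SE 0.27). These GTPases are close paralogs, so part of each signal can come from a relative. Apol7c, an apolipoprotein L family gene, changed by -2.70 (SE 0.29), and its 2 probes had the same direction.

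Of the named falls, 4 encode matrix or secreted proteins. Timp1, an inhibitor of matrix metalloproteinases, stood at -1.22, -0.64, -0.99 and -0.73 under dexamethasone, against 2.93, 1.43, 2.48 and 1.63 under vehicle (log2 change -3.01, 8.06-fold). Mmp11, a metalloproteinase of stroma, stood at 0.99, 0.95, 1.23 and 0.76, against 3.67, 3.23, 3.85 and 2.80 in vehicle uteri (log2 change -2.41, 5.3-fold). The enzyme and the inhibitor therefore fell together. Spon2, a secreted matrix protein that also binds microbial surfaces, stood at -0.80, -0.43, -0.93 and -0.25 with dexamethasone, against 2.63, 2.21, 2.33 and 2.21 with vehicle (log2 change -2.95, SE 0.21, adjusted p = 2.37e-06). C1ql2, a secreted C1q-like protein known from synapses, had the steepest of the named falls. It measured -4.63, -4.26, -5.51 and -4.78 with dexamethasone, against -1.23, -1.96, -1.16 and -1.67 with vehicle (log2 change -3.29, SE 0.39, 9.78-fold).

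The remaining named falls were intracellular or membrane proteins. Dapk2, a calmodulin-regulated death-associated kinase, was one of the tightest, with -1.0, -0.64, -0.97 and -0.66 on dexamethasone arrays, against 1.91, 2.13, 1.97 and 1.99 on vehicle arrays (log2 change -2.82, SE 0.18, adjusted p = 1.13e-06). Prnd, the prion-like protein doppel, was much more scattered, with -4.19, -3.71, -2.67 and -1.90 under dexamethasone, against 0.35, -0.10, -0.29 and -0.17 under vehicle (log2 change -3.07, SE 0.44). Wdr86 changed by -2.35 (SE 0.23) and Fam167b by -2.55 (SE 0.33). Fthl17e, a ferritin heavy chain-like gene on the X chromosome with near-identical neighbours, gave -2.96 (SE 0.61) and is uncertain for that reason.

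Pathway lists were read as counts of called members beside the shares over all genes, 8.45% higher and 14.6% lower. Of 21 lists, 13 had a median log2 change below 0 and 8 above, but this split depended on the scaling. It was 8 and 13 with median scaling, and all 21 medians were above 0 with spike-in scaling, which sets each array by its spiked control RNA. Under that scaling the median over all genes was 0.69, and 0.06 without dexamethasone array 4, whose spike-in signal was 483 against 2447 to 2745 on the other arrays of its group. All directions below are therefore relative to the 75th percentile. Leaving out 1 array at a time, a setting chosen after seeing the data, moved many list counts by over 1.5 times, and those counts stand beside each list.

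Nucleolar ribosome biogenesis, the making and processing of ribosomal RNA, was the most one-sided of the 21 lists. Of 43 members tested 16 rose, none fell and 27 did not pass, and 38 had a change above 0, with a median of 0.406. The array medians were 0.158, 0.0154, 0.0381 and 0.274 on dexamethasone arrays, against -0.211, -0.406, -0.265 and -0.246 on vehicle arrays, so all 4 treated arrays lay above all 4 vehicle arrays. Within slides 1, 3 and 4 the median was 0.413, 0.603 and 0.331. At equal adipocyte score 6 rose, and without dexamethasone arrays 2 and 3, 15 rose. Under spike-in scaling 1 rose and the median was 1.26, and without dexamethasone array 4 none rose and the median was 0.547. No member lay in the lower 2 signal classes.

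Utp18, a component of the processome that first handles the ribosomal RNA precursor, had the largest rise of that list. Its levels were 1.68, 1.10, 1.53 and 2.09 with dexamethasone, against -0.35, 0.45, -0.14 and 1.04 with vehicle (log2 change 1.35, SE 0.30, adjusted p = 0.00661). Mrto4, an assembly factor of the large subunit, stood at 2.74, 2.63, 2.55 and 2.99, against 1.49, 1.43, 1.79 and 1.88 in vehicle uteri (log2 change 1.08, SE 0.16). These groups did not overlap for either gene. Dkc1, the pseudouridine synthase dyskerin, changed by 1.10 (SE 0.27), and at equal adipocyte score its adjusted p was 0.0509. Ddx21, a nucleolar RNA helicase, changed by 0.97 (SE 0.21), but its other probes gave -0.26 and 0.16, so its rise rests on 1 probe of 3.

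**Figure D2:**
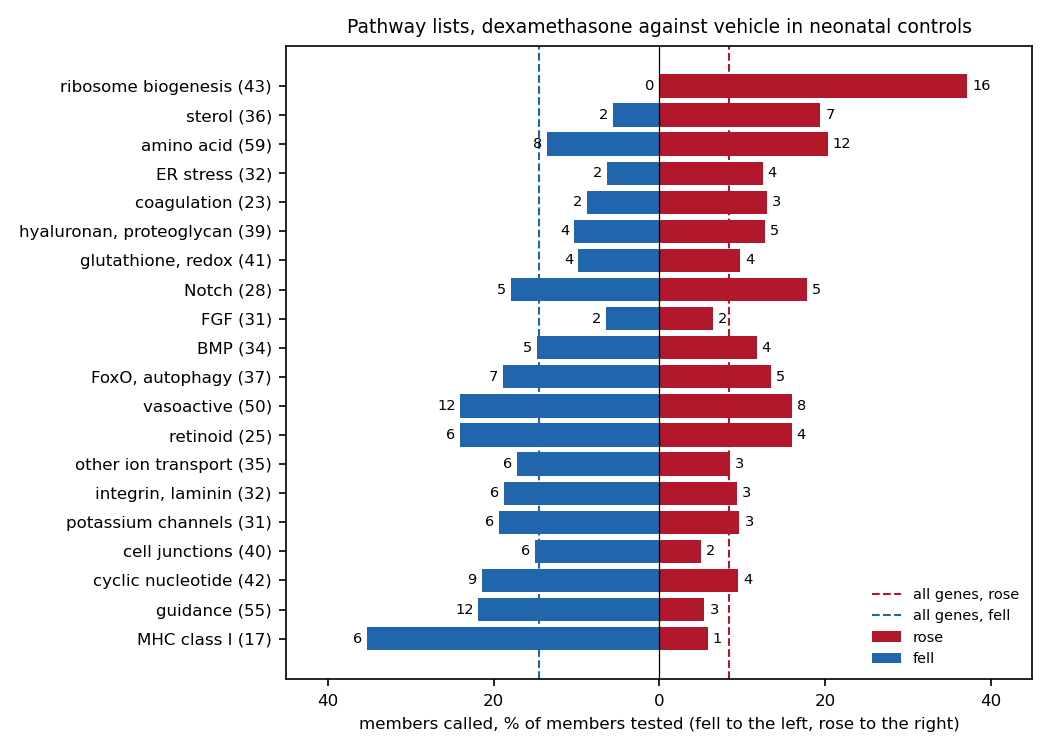
Share of tested members that rose (right, red) and fell (left, blue) with dexamethasone in each of 20 of the 21 pathway lists, in percent of the members tested, which stand in brackets; the numbers beside the bars are gene counts. Dashed lines mark the shares over all genes, 8.45% higher and 14.6% lower, and ribosome biogenesis stands out with 16 rises and 0 falls of 43.

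Cholesterol synthesis enzymes rose in part. Of 36 sterol genes 7 rose and 2 fell, with 28 changes above 0 and a median of 0.182. The falls numbered 0 without vehicle array 1 or 3 or dexamethasone array 1 or 3, and 1 without dexamethasone array 4. Idi1, which makes the isoprenoid building block, stood at 1.34, 1.34, 1.75 and 1.98 under dexamethasone, against 0.34, 0.50, -0.12 and 0.42 under vehicle (log2 change 1.32, SE 0.28). Its groups did not overlap. Nsdhl changed by 1.24 (SE 0.21) and the lanosterol demethylase gene Cyp51 by 1.02 (SE 0.22), with other probes at 0.15 and 0.51 for Nsdhl and at -0.02 and 0.78 for Cyp51. Adipocytes also make sterols, and at equal adipocyte score 1 member rose, while 6 rose without dexamethasone arrays 2 and 3.

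Amino acid transport and metabolism genes moved both ways, with 12 rises and 8 falls among 59. The normexp correction turned the sign of this list's median, which was 0.191. Cth, which makes cysteine from cystathionine, measured 0.45, 0.08, 0.19 and 0.59 with dexamethasone, against -1.38, -1.78, -1.33 and -1.47 with vehicle (log2 change 1.82, SE 0.17, adjusted p = 2.26e-05). Il4i1, an immune cell enzyme that oxidises phenylalanine, fell. It measured -4.03, -3.77, -4.17 and -3.69, against -1.96, -2.67, -2.33 and -2.38 in vehicle uteri (log2 change -1.58, SE 0.19). Glutathione and antioxidant genes gave 4 rises and 4 falls among 41 (9.76% each), near or below the shares over all genes. The falls numbered 2 without any 1 of vehicle arrays 1, 2 and 3 and dexamethasone arrays 1 and 3. The secreted peroxidase gene Gpx3 changed by 1.05 (SE 0.21), whereas the theta-class transferase genes Gstt1 and Gstt2 changed by -1.51 (SE 0.22) and -1.20 (SE 0.16). Alpha-class Gsta3, given above, moved the opposite way to these theta-class genes.

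Genes of the endoplasmic reticulum stress response showed 4 rises and 2 falls among 32 (12.5% and 6.25%). No rise was called without vehicle array 1 or dexamethasone array 1, 1 without vehicle array 3 or dexamethasone array 3 or 4, and 2 without vehicle array 2. Ddit3, the stress-induced factor CHOP, was lower, at -0.09, -0.22, -0.39 and -0.10 with dexamethasone, against 0.98, 1.05, 0.75 and 0.66 with vehicle (log2 change -1.06, SE 0.17). Derl3, a degradation factor of the same organelle, changed by -1.50 (SE 0.22). Chac1, which degrades glutathione and is usually induced downstream of the same response, went the other way with a log2 change of 1.05 (SE 0.35, adjusted p = 0.042). Its groups overlapped, since dexamethasone array 2 at -2.05 lay among the vehicle arrays at -1.93, -2.11, -1.90 and -2.06. FoxO and autophagy genes gave 5 rises and 7 falls among 37 (13.5% and 18.9%). The rises numbered 2 without vehicle array 1, and 3 without vehicle array 2 or dexamethasone array 1, 2 or 3. Depp1, a FoxO target that regulates autophagy, stood at 2.50, 2.97, 1.91 and 1.08 under dexamethasone, against -0.08, 0.70, -0.10 and -0.05 under vehicle (log2 change 2.00, SE 0.39). The lysosomal factor gene Tfeb changed by -0.96 (SE 0.14) and the stress sensor gene Sesn3 by -0.81 (SE 0.18). The sign of Sesn3 turned under spike-in scaling, but not when dexamethasone array 4 was also left out.

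Vascular signalling lists held both rises and falls. Of 50 vasoactive genes 8 rose (16%) and 12 fell (24%), both above the shares over all genes. The median was -0.415. It was 0.44 under spike-in scaling, and -0.0708 under that scaling without dexamethasone array 4. Adm, the vasodilator peptide adrenomedullin, stood at 2.17, 2.07, 1.74 and 1.76 with dexamethasone, against 0.32, 0.44, 0.57 and 0.81 with vehicle (log2 change 1.40, SE 0.24). Npy1r, a neuropeptide Y receptor that constricts vessels, was dim and measured -1.97, -2.40, -2.02 and -3.09, against -4.15, -3.86, -4.21 and -4.31 in vehicle uteri (log2 change 1.76, SE 0.32). Htr2b, a serotonin receptor, fell and was also dim. It measured -4.37, -4.72, -4.51 and -5.13 with dexamethasone, against -2.15, -2.42, -3.07 and -2.48 with vehicle (log2 change -2.15, SE 0.20, adjusted p = 3.16e-05). The angiotensinogen gene Agt, which adipocytes and liver also express, changed by 2.40 (SE 0.45), and by 0.85 at equal adipocyte score (adjusted p = 0.111).

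Guidance molecules, which steer nerve fibres and growing vessels, gave 3 rises and 12 falls among 55, with 6 and 7 under median scaling and no call under spike-in scaling. Without vehicle array 1 there were 2 rises and 6 falls. The median was -0.251. It was 0.60 under spike-in scaling, and -0.00031 under that scaling without dexamethasone array 4. Plxnd1, a semaphorin receptor of endothelium, was tightly grouped at -1.26, -1.22, -1.52 and -1.43 under dexamethasone, against 0.15, 0.35, 0.28 and 0.11 under vehicle (log2 change -1.58, SE 0.19). Nrp2, a coreceptor for semaphorins and a vascular growth factor, stood at 2.13, 1.60, 1.70 and 1.37, against 3.10, 3.04, 3.12 and 2.89 in vehicle uteri (log2 change -1.34, SE 0.21). Both receptors fell with no overlap. The semaphorin genes Sema5b and Sema6c changed by -1.71 (SE 0.45) and -1.48 (SE 0.23), with other probes in the same direction. Endothelial markers moved with these genes, since 9 of 22 fell and 1 rose. The falls numbered 4 without vehicle array 1, 5 without dexamethasone array 3 and 2 at equal adipocyte score. Their array medians were 0.00568, -0.0915, -0.44 and -0.283 with dexamethasone, against 0.33, 0.234, 0.0976 and 0.0462 with vehicle, and their part in the falls was not tested.

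Notch genes were split evenly, with 5 rises and 5 falls among 28. The receptor gene Notch4, known from endothelium, stood at 0.50, 0.03, 0.10 and 0.06 under dexamethasone, against -0.84, -0.50, -0.68 and -0.78 under vehicle (log2 change 0.87, SE 0.22). The ligand gene Jag2 stood at -0.63, -0.73, -0.75 and -0.63, against -1.64, -1.36, -1.36 and -1.52 in vehicle uteri (log2 change 0.78, SE 0.14). A receptor and a ligand rose, while Maml3, a coactivator of the pathway, changed by -1.59 (SE 0.30). The 40 cell junction genes, connexins and claudins among them, gave 2 rises and 6 falls (5% and 15%), near or below the shares over all genes. There were 3 falls without vehicle array 1, and 1 rise without any 1 array other than vehicle array 3 or dexamethasone array 2. Gja5, a gap junction protein of arterial endothelium, measured -3.48, -4.23, -4.44 and -3.66 with dexamethasone, against -1.82, -1.70, -2.20 and -2.42 with vehicle (log2 change -1.92, SE 0.26, adjusted p = 0.000483). Cldn11, a claudin in the dimmer classes, changed by -1.01 (SE 0.15).

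Bone morphogenetic protein genes had 4 rises and 5 falls among 34 (11.8% and 14.7%), near the shares over all genes. The falls numbered 1 without vehicle array 1 or 3, 2 without dexamethasone array 3 or 4, and 3 without vehicle array 2 or dexamethasone array 1 or 2. The inhibitory helix-loop-helix genes Id1 and Id2, usual targets of that pathway, rose by 1.23 (SE 0.24) and 0.80 (SE 0.19), while the ligand gene Gdf7 changed by -1.28 (SE 0.22). Id1 stood at 4.44, 4.69, 4.71 and 4.89 under dexamethasone, against 3.00, 3.69, 3.09 and 4.01 under vehicle. Fibroblast growth factor genes had 2 rises and 2 falls among 31 (6.45% each), below the shares over all genes. They had 1 of each without dexamethasone array 3 or 4, while 1 fall was left without vehicle array 2 or 4. The receptor gene Fgfr3 changed by 0.99 (SE 0.20), but its other probes gave 0.16 and 0.34. Retinoid genes gave 4 rises and 6 falls among 25 (16% and 24%). These counts were 2 and 3 without vehicle array 1, 3 and 3 without vehicle array 2 or dexamethasone array 2, and 2 and 4 without dexamethasone array 4. Adh1, which oxidises retinol, stood at 4.44, 4.40, 4.49 and 4.20, against 2.70, 3.21, 3.65 and 3.11 in vehicle uteri (log2 change 1.22, SE 0.21). The retinoid receptor gene Rxrg changed by -1.53 (SE 0.32) and the retinoic acid carrier gene Crabp1 by -1.46 (SE 0.32), and both lost their call at equal adipocyte score.

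Ion channels and second messengers were also mixed. Potassium channel genes rose and fell in 9.68% and 19.4%, other ion transport genes in 8.57% and 17.1%. For cyclic nucleotide genes the shares were 9.52% and 21.4%, and over all genes 8.45% and 14.6%. These shares are not far apart, so the counts are not read as results of the lists. Beside Kcna5, the potassium channel gene Kcnd2 rose, at -0.66, -1.73, -1.13 and -0.09 with dexamethasone, against -3.22, -2.64, -2.39 and -2.13 with vehicle (log2 change 1.70, SE 0.33). In all, 3 of 31 potassium channel genes rose and 6 fell (3 without vehicle array 1), among them the calcium-activated Kcnn3 at -1.53 (SE 0.31), which was above background on 1 dexamethasone array and on 4 vehicle arrays. Other ion transport genes gave 3 rises and 6 falls among 35. No rise was called without vehicle array 1, and 1 without dexamethasone array 4. The epithelial sodium channel subunit gene Scnn1b changed by -1.36 (SE 0.26), the sodium pump subunit gene Atp1b2 by -1.25 (SE 0.25) and the scaffold gene Slc9a3r1 by -1.02 (SE 0.24). Slc26a4, the anion exchanger pendrin, overlapped between groups, with -4.40, -5.84, -1.96 and -1.24 under dexamethasone, against -5.53, -4.75, -5.71 and -6.76 under vehicle (adjusted p = 0.0432). Of 42 cyclic nucleotide genes 4 rose and 9 fell, and 2 rose without vehicle array 1, 2 or 3. The calcium-dependent phosphodiesterase genes of one family went opposite ways, Pde1a at 1.54 (SE 0.18) and Pde1b at -1.29 (SE 0.22). Pde1a stood at 1.64, 1.66, 1.37 and 1.57 with dexamethasone, against 0.21, 0.05, 0.02 and -0.22 with vehicle, and Pde1b at -1.91, -1.74, -2.39 and -2.38 with dexamethasone, against -0.37, -0.76, -0.92 and -1.20 with vehicle. The cyclase gene Adcy1 changed by 1.82 (SE 0.32), and its other probes gave -0.99 and 0.66, so its direction is uncertain.

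The list for MHC class I presentation, which shows peptides to cytotoxic T cells, gave 1 rise and 6 falls among 17, with a median of -0.449. The rise was lost without any 1 array other than vehicle array 4 or dexamethasone array 2. Median scaling left 2 falls, and without dexamethasone arrays 2 and 3 there was 1 fall. Spike-in scaling left no fall, with or without dexamethasone array 4. The median under that scaling was 0.40, and -0.272 without this array. Psmb9, a catalytic subunit of the immunoproteasome, stood at 1.45, 1.45, 0.99 and 1.57 with dexamethasone, against 2.63, 2.15, 2.61 and 2.45 with vehicle (log2 change -1.09, SE 0.19). Tapbpl, a peptide editor, stood at -0.46, -0.06, -0.36 and -0.02, against 0.86, 0.57, 1.28 and 0.81 in vehicle uteri (log2 change -1.11, SE 0.29). The transactivator gene Nlrc5 was dim, and its change of -1.16 (SE 0.30) came with overlapping groups. Lymphocyte markers moved with these genes, with 16 of 26 lower and none higher, 10 lower without vehicle array 1 and 6 lower at equal adipocyte score. Their array medians were -0.529, -0.528, -1.03 and -0.562 under dexamethasone, against 0.409, 0.107, 0.245 and 0.132 under vehicle, and 14 of them were in the dimmer classes. Their part in the falls was not tested.

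Surface sugar and basement membrane genes changed singly rather than in one direction. Has2, the main synthase of hyaluronan, stood at -2.81, -4.28, -3.04 and -1.78 under dexamethasone, against -0.37, -0.40, -0.77 and -0.49 under vehicle (log2 change -2.47, SE 0.56, adjusted p = 0.0078). At equal adipocyte score its adjusted p was 0.203. The hyaluronan receptor gene Cd44 stood at 0.49, 0.55, 0.64 and 1.26, against 1.92, 1.81, 1.67 and 1.80 in vehicle uteri (log2 change -1.06, SE 0.20), and both other Cd44 probes were lower too. The synthase and the receptor thus both fell, within a list of 39 that gave 5 rises and 4 falls, and 2 falls without vehicle array 1 or 3 or dexamethasone array 2. Lama4, a laminin chain of vessel basement membranes, changed by -1.30 (SE 0.18). Its list of 32 integrin and laminin genes gave 3 rises and 6 falls (9.38% and 18.8%), near the shares over all genes. There were 3 falls without vehicle array 1 and 2 without dexamethasone array 1. Lama1 changed by 1.92 (SE 0.46) and the chondroitin synthase gene Chsy3 by 1.16 (SE 0.27), but both are dim and their sign turned under normexp. Cdc42ep4, an effector of the GTPase Cdc42, stood at 3.10, 2.81, 3.27 and 3.40 with dexamethasone, against 0.55, 1.73, 0.48 and 1.54 with vehicle (log2 change 2.07, SE 0.26), and its other probe gave 0.67. The GTPase gene Rnd1 changed by -1.22 (SE 0.27). In coagulation, with 3 rises and 2 falls among 23 (1 fall without vehicle array 1 or dexamethasone array 2), the transglutaminase gene F13a1 changed by 1.58 (SE 0.30), while the endothelial anticoagulant gene Thbd changed by -0.70 (SE 0.16), a sign that turned under spike-in scaling.

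Adipocyte genes were higher on most dexamethasone arrays. Of 33 adipocyte genes tested 20 rose, none fell and 13 did not pass, with a median log2 change of 2.00. All 33 were above background on the 4 dexamethasone arrays and 28 on the 4 vehicle arrays, and none was below background throughout a group. An adipocyte score, the mean deviation of these genes from their own means over 16 arrays, was -0.661, 1.93, 1.85 and 0.753 on dexamethasone arrays 1 to 4, against -0.373, -1.21, -1.04 and -2.06 on vehicle arrays 1 to 4. Dexamethasone array 1 thus lay within the range of the vehicle arrays, and the other 3 lay above it. Within slides 1, 3 and 4 the median change of the list was 1.79, 0.389 and 2.81. Without dexamethasone array 3, 12 of the list rose, and without arrays 2 and 3, 4 rose. After genistein, dexamethasone gave no call in this list and a median of 0.0185. Of 19 smooth muscle markers 5 fell (26.3%) and none rose, with a median of -0.588. Their array medians were 0.278, 0.211, -0.679 and -0.811 with dexamethasone, against 0.357, 0.256, 0.434 and 0.230 with vehicle. No fall was called at equal adipocyte score, or without vehicle array 1 or dexamethasone array 3 or 4.

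With the score as a covariate 947 genes rose (3.84%) and 2045 fell (8.30%), so 1206 rises and 1821 falls of the comparison ended, although the score itself differs between the groups and this fit also removes treatment effects that run along with it. Without dexamethasone arrays 2 and 3, 1095 rose (4.44%) and 2490 fell (10.1%). The steepest rises outside the adipocyte list that ended were liver and fat secretory genes, the acute phase protein genes Orm1 and Orm3 and the lipocalin genes Mup1 and Mup2. Orm1 measured -5.71, -0.80, -0.99 and -2.42 with dexamethasone, against -5.05, -7.60, -6.40 and -7.47 with vehicle, and its log2 change was 4.15 (SE 1.00) but 0.42 at equal score. Mup1 measured -4.35, 2.58, -1.60 and 1.39, against -2.54, -5.25, -3.71 and -7.67 in vehicle uteri, and its change was 4.30 (SE 1.41) but 0.04 at equal score. In both genes dexamethasone array 1 lay among the vehicle arrays, and the other dexamethasone arrays lay above all of them. On vehicle array 4 both genes lay below -7.01, the lowest level flagged above background on that array, so the size of their changes is uncertain. Orm3 and Mup2 gave 4.60 and 4.04, and 1.60 and 0.88 at equal score, and Orm3 was -1.83 within slide 3. Each belongs to a family of near-identical copies, so the member is uncertain.

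**Figure D3:**
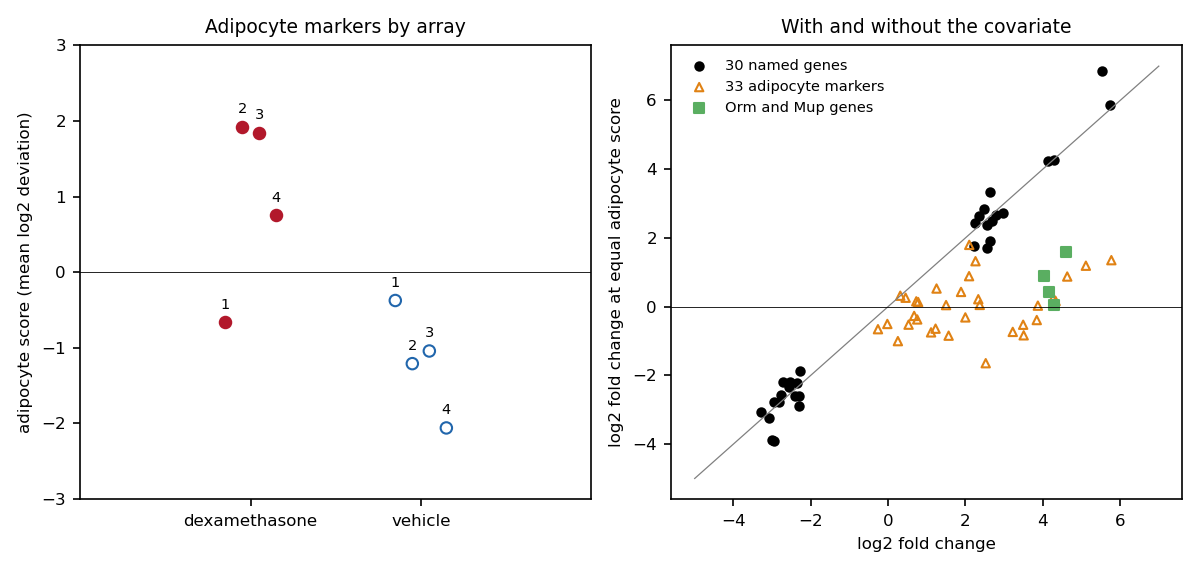
Left, adipocyte score of each dexamethasone array (filled) and vehicle array (open), as mean log2 deviation of 33 adipocyte genes, with array numbers. Right, log2 fold change of each gene on the x axis and at equal adipocyte score on the y axis, with a line of equality. The positions describe choices already made, since the markers make up the score, the 30 named genes had to keep their call at equal score, and the 4 Orm and Mup genes were picked for losing it.

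Dim probes carried most of the excess of falls. In 5 equal classes of mean signal, from the dimmest to the brightest, 120, 179, 493, 700 and 590 genes rose and 751, 893, 828, 627 and 488 fell. The median log2 change in those classes was -0.534, -0.381, -0.157, 0.0105 and 0.0210, so the 2 brightest classes were centred near 0. A list taken by symbol prefix held receptor, keratin-associated and defensin gene families (olfactory, vomeronasal and trace amine receptors among them). It was meant to hold families without a known use in the uterus, which need not be true of every member. It had 596 genes tested, and 568 of them lay in the 2 dimmest classes. Of these 596, 122 fell and 2 rose, with a median of -0.827. Of the same genes, 155 were above background on no dexamethasone array and 111 on all 8 arrays. Among genes well above background on all 16 arrays, 37 of 108 in these families fell and none rose, with a median of -0.784. Of all 18859 genes in that setting 3036 fell, with a median of -0.0884. The median raw signal of the 596 was 23.5, 17.6, 20.1 and 17.5 on the dexamethasone arrays, against 49.8, 22.1, 7.91 and 26.8 on the vehicle arrays. The 75th percentile that scales each array was 2719, 1987, 2507 and 2615 on dexamethasone arrays, against 1795, 1691, 948 and 2029 on vehicle arrays, so 3 of 4 treated arrays were scaled by a larger value than any vehicle array. Vehicle array 1 had the highest raw signal in these families, and without it 41 fell and 1 rose, with a median of -0.511. Without vehicle arrays 2 and 3 in turn 72 and 195 fell, and without dexamethasone arrays 1 and 4 in turn 61 and 51. Within slides 1, 3 and 4 the median was -1.85, -0.856 and -0.624. It was 0.02 under spike-in scaling, and -0.505 under that scaling without dexamethasone array 4. After genistein no gene of these families was called, and the median was 0.0952.

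**Figure D4:**
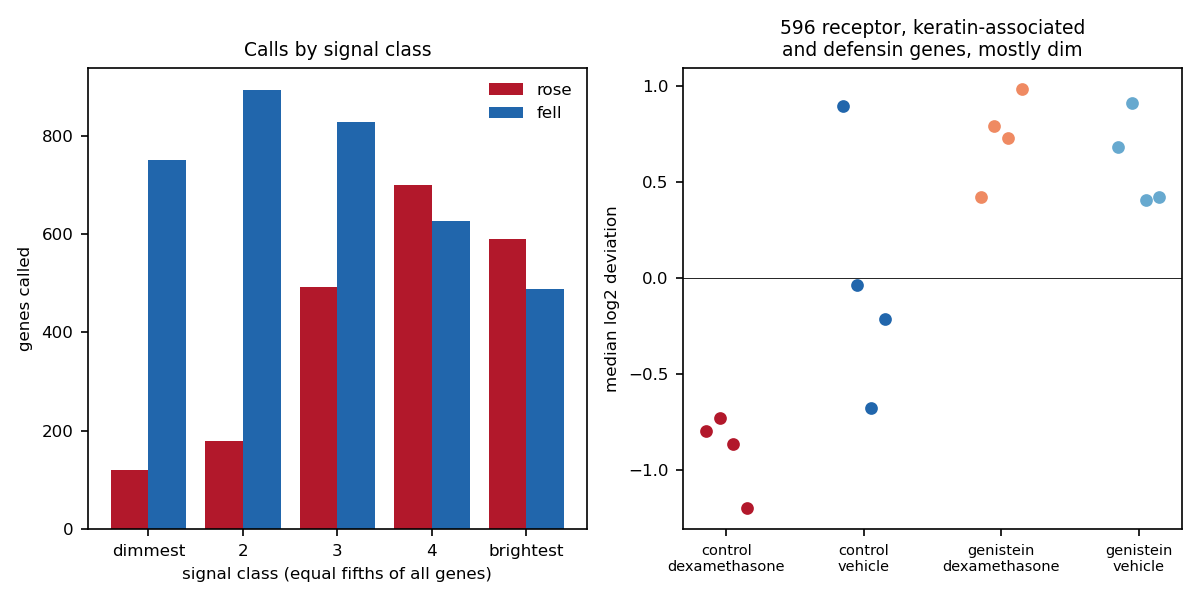
Left, number of genes that rose and fell with dexamethasone in neonatal controls by signal class, from 120 and 751 in the dimmest to 590 and 488 in the brightest. Right, median log2 deviation of 596 olfactory, vomeronasal, trace amine, keratin-associated and defensin genes on each array; the 4 control dexamethasone arrays lie lowest, and control vehicle array 1, at 0.893, lies near the genistein arrays.

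Calls in the dim classes that met the other conditions for naming numbered 44 rises and 353 falls. Some of them were steep and above background on every array of the groups compared, though Lrrc55 was not so on every array of the series. Lao1, a secreted amino acid oxidase, stood at -0.81, -0.01, -1.08 and -1.54 with dexamethasone, against -5.65, -5.64, -5.28 and -4.98 with vehicle (log2 change 4.53, SE 0.31). Lrrc55, an accessory subunit of potassium channels, measured -5.08, -5.07, -4.80 and -3.77 with dexamethasone, against -0.57, -1.36, -1.91 and -1.51 with vehicle (log2 change -3.34, SE 0.50).

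Other dim genes were measured in only part of a group. Adamtsl2, a microfibril-associated matrix protein, was above background on 4 dexamethasone and 2 vehicle arrays, with a log2 change of 4.02 (SE 0.47). The nasal and liver P450 gene Cyp2a5 was above background on 4 dexamethasone and 2 vehicle arrays, at -2.05, -4.29, -4.11 and -4.32, against -7.91, -6.07, -5.20 and -7.17 (log2 change 2.89, SE 0.69). It has near-identical relatives, and dexamethasone array 1 lay above the rest. Cyp1a1, the classical target of the aryl hydrocarbon receptor, was above background on 4 dexamethasone arrays and 1 vehicle array, at -5.67, -2.87, -6.26 and -4.64, against -9.15, -6.94, -8.24 and -6.51 (log2 change 2.85, SE 0.74), and its sign turned under normexp. The pseudogene Vmn1r-ps103 was well above background on no dexamethasone array and on 3 vehicle arrays, and was at least 3.59-fold lower (adjusted p = 0.00515). The olfactory receptor gene Olfr1305, above background on 2 dexamethasone and 4 vehicle arrays, changed by -3.37 (SE 0.70). Both are members of large families with similar sequences.

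The same dose was also given to mice that had received genistein as newborns, on arrays that are not shared with the controls. There 614 genes rose (2.49%) and 689 fell (2.80%), against 2082 and 3587 in the controls. The test of the difference, limma's interaction term, called 0 of 24651 genes, and 3830 (15.5%) had an unadjusted p below 0.05. With spike-in scaling 15 genes were called, with spike-in scaling without dexamethasone array 4 there were 0, and with the adipocyte covariate 1. A larger number of calls in one arm is therefore not a tested difference of any gene. All 15 named rises had the same sign after genistein and 14 were called, and all 15 named falls had the same sign and 12 were called. Cyp2f2 was the rise that was not called there, at 1.32 (adjusted p = 0.212), and C1ql2, Fthl17e and Gbp5 were the falls, at -1.39, -1.03 and -0.93. In 10 of the rises and 14 of the falls the change after genistein was smaller in size, but the genes had been chosen for their change in the controls, so nothing is read from that count. The interaction had an unadjusted p below 0.05 in 3 of the rises and 7 of the falls, and the adjusted p ran from 0.181 to 0.889. The ribosome biogenesis list gave 7 rises and no fall after genistein, with a median of 0.404 against 0.406 in controls, while the sterol list gave 1 rise, with a median of -0.0557 against 0.182.

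**Figure D5:**
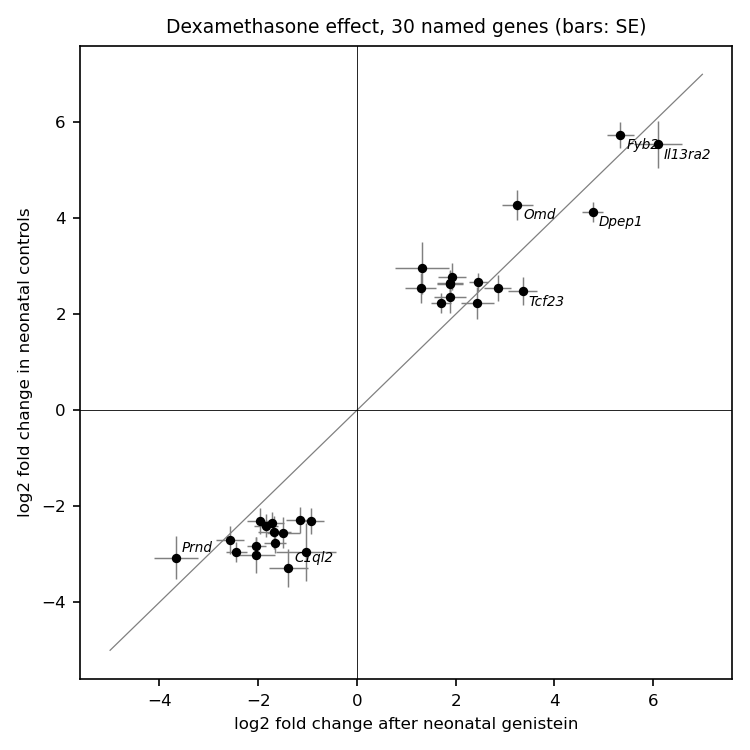
Log2 fold change of dexamethasone against vehicle for the 30 named genes, in neonatal controls on the y axis and after neonatal genistein on the x axis, with standard errors as bars and a line of equality. All 30 points lie in the quadrants of equal sign, and none had a called interaction.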

How the data were processed

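Whole uterus RNA (400 ng, Cy3) was hybridised to 16 one-colour Agilent arrays of design 014868, 4 a group, each with 45018 spots. Per the file headers, the deposited values are linear scanner intensity per spot, which Agilent Feature Extraction 12.0.0.7 had corrected for background and spatial trend but not scaled across arrays. Version 9.5 is the one in the submitters' processing notes. The deposited series values hold the same intensity (largest difference 0). Flag columns, deposited as 0 or 1, were used for filtering, and 0 columns of sample values were left unused.

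Here log2 intensity minus each array's 75th percentile was used. Outlier spots were set to missing, 807 probes with a missing value were dropped, and 32598 of 41174 probes were kept, each flagged above background on 4 or more of the 16 arrays. The brightest probe stood for a gene. RefSeq accessions matched the GRCm38.p6 annotation for 28223 of 29245 probes, leaving 8123 unnamed targets. The files' array grid uses its own build, so probe coordinates are not given. A model of 4 group means was fitted with limma 3.58.1 (R 4.3.3, the data.table package in version 1.17.8; figures with matplotlib 3.10.9 in Python 3.11.15), and its two-sided moderated p-values were adjusted by Benjamini-Hochberg over all 24651 targets. The script was tested on simulated data.

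The members, gene lists and rules were chosen with earlier results of these data known, so list counts carry no independent support. Named genes were the 15 largest rises and 15 largest falls under the conditions given in the results, the 4 largest of each in the 2 dimmest classes, the 4 largest rises lost with the adipocyte covariate, and up to 4 called members of each pathway list, of which a selection is printed; a few of these genes and 1 list are not reported here. Slides 1, 3 and 4 carried both groups. Slide 1 held dexamethasone arrays 2 and 4 and vehicle array 1. Slide 3 held dexamethasone array 1 and vehicle array 2, and slide 4 dexamethasone array 3 and vehicle array 4. The alternatives were quantile, median and spike-in scaling, normexp with offset 50 on median spot and local background signals (mean spot signals are not used here), 2 filters, the mean of probes, slide or replicate blocks, the 8 arrays alone, an adipocyte covariate, a variance trend, a minimum of 1.5-fold and leaving out arrays.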

Additional observations from a re-analysis of the deposited data

Results flagged for a closer look

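In each group of 4 arrays, the highest or lowest array was compared with its nearest neighbour for the 100 printed genes, 34 lists and the array measures. Of 270 groups 12 had an array set apart by Dixon's ratio, and chance gives about 1 in 20. Among genes these were Tmem252 on dexamethasone array 2 (0.381, others -0.173 to -0.0911), Cyp2a5 on dexamethasone array 1 (-2.05, others -4.32 to -4.11) and Sema6c on dexamethasone array 2 (-3.51, others -4.39 to -4.33). Notch4 was apart on dexamethasone array 1 (0.503, others 0.0343 to 0.103) and Lama4 on dexamethasone array 4 (-0.412, others 0.142 to 0.194). On vehicle arrays, Fgfr3 was apart on array 3 (-1.69, others -2.03 to -1.99), Depp1 on array 2 (0.705, others -0.103 to -0.0546) and F13a1 on array 1 (-2.43, others -1.16 to -1.08). None of these arrays reached the other group's range.

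Among list medians, the lymphocyte list was apart on dexamethasone array 3 (-1.03, others -0.562 to -0.528), the antioxidant list on dexamethasone array 1 (-0.305, others -0.0699 to -0.0336) and the proteoglycan list on vehicle array 1 (-0.0542, others -0.00151 to 0.00513). The spike-in signal of dexamethasone array 4 was 483, against 2447 to 2745 on the other arrays of its group, and it enters spike-in scaling.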

How the results depend on the processing

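Dexamethasone called 5669 genes, 2082 higher and 3587 lower. Median scaling called 3431 higher and 1864 lower, so 64.8% of calls were higher, against 36.7%. Spike-in scaling called 482 (462 higher, 20 lower, 95.9% higher), and without dexamethasone array 4, a setting chosen after seeing the data, 236 (165 and 71, 69.9% higher). The shares higher were 47.3% with quantile normalization and 33.6% with normexp, which called 3332 (1121 and 2211). The median change of all genes was -0.16, -0.04 with quantile, 0.07 with median, 0.69 with spike-in scaling and -0.49 with normexp. The adipocyte covariate left 2992 (947 and 2045), and omitting dexamethasone arrays 2 and 3 left 3585, 1095 of them higher. Leaving out 1 array gave 3107 (without vehicle array 1) to 5456 calls, with 1260 to 2000 higher and 1847 to 3555 lower. Single genes turned sign as follows: normexp gave Cyp1a1 -0.31, Chsy3 -0.27 and Lama1 -0.13, spike-in scaling gave Sesn3 0.044 and Thbd 0.15, and slide 3 alone gave Orm3 -1.83. No printed gene turned sign under spike-in scaling without dexamethasone array 4. Of 100 printed genes 55 lost their call with spike-in scaling, 19 with normexp, 19 with the covariate and 11 without arrays 2 and 3. Of the 30 named genes, 12 falls lost it with spike-in scaling and Pik3c2g with normexp, and Fthl17e with spike-in scaling without dexamethasone array 4. The other settings with a test kept all 30, of which the covariate and the omission of dexamethasone arrays 2 and 3 had been conditions for naming them. The interaction called 0 genes, 1 with the covariate, 0 with slide as a fixed block or the replicate block, and 15 with spike-in scaling, which for this test was added after seeing the data. Spike-in scaling without dexamethasone array 4 called 0 in this test. Replicate numbers did not pair the arrays (correlations of deviations 0.0284, -0.0203, -0.109 and 0.00432), and the replicate block called 6080 genes. Signals near background limit the dim classes.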
